A study of Mus musculus with 2 samples.

Results

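The 50 genes described here encode the proteasome, its activators, its assembly chaperones and its inhibitor, together with 2 genes included by symbol alone. These 2 are Psmc3ip and Psme2b, and Psme2b is close in sequence to the activator gene Psme2. The 50 are all genes annotated as protein-coding in GENCODE whose symbol begins with Psm, a letter from a to g and a digit. They were taken from 43346 annotated genes, 21474 of them protein-coding. The study sequenced total RNA of granulocyte-monocyte progenitors, the bone marrow cells from which neutrophils and monocytes arise. These primary cells came from male mice of the strain C57BL/6J that were 5 to 6 weeks old, and formed 1 group of 2 biological replicates, each prepared from 100 ng of RNA after removal of ribosomal RNA. The labels tie both libraries to 1 donor record, so an SD here may reflect technical variation in part and holds for these libraries alone. No condition was compared and no p-value is given.

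The proteasome degrades proteins that carry ubiquitin chains. Its barrel-shaped core, the 20S particle, has outer rings of alpha subunits that gate the entrance and inner rings of beta subunits. Only the beta positions called beta1, beta2 and beta5 cut peptide bonds. The 19S particle caps the barrel, recognises ubiquitin, and unfolds and feeds in the substrate. Immune cells, and other cells exposed to interferon, can build the core with substitute catalytic subunits. These immune subunits favour peptides suited to class I antigen presentation.

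The replicates held 49473848 and 44260902 expected counts, the estimated number of reads of each gene, of which the 50 genes took 281195 (0.568%) and 255903 (0.578%). Levels are in TPM, a measure of a transcript's share of all transcripts, a unit scaled by transcript length so that genes can be compared. TPM is scaled over every feature in the files, and nuclear protein-coding genes held only 19.07% of it in replicate 1 and 22.84% in replicate 2, a shift that is part of every SD of a TPM. The 50 genes made up 0.953% and 0.943% of the TPM of nuclear protein-coding genes. All 5 progenitor markers checked (Fcgr3, Cd34, Kit, Mpo and Elane) were above 10 TPM, and 4 of 5 markers of other populations were below 1 TPM in both libraries. The exception was the megakaryocyte integrin Itga2b, at 2.91 and 3.38 TPM.

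The progenitors expressed nearly the whole set. In both libraries 49 of the 50 genes were at or above 1 TPM, beside 40.9% of all protein-coding genes. At or above 10 TPM there were 42, beside 14.3%, and at or above 50 TPM there were 14, beside 2.57%. The median of the 50 was 32.3 and 38.3 TPM in the 2 replicates. The median of 8775 protein-coding genes at or above 1 TPM was 6.48 and 7.75 TPM. In such bulk RNA, fewer cells expressing a gene and less of its RNA per cell cannot be told apart.

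**Figure D1:**
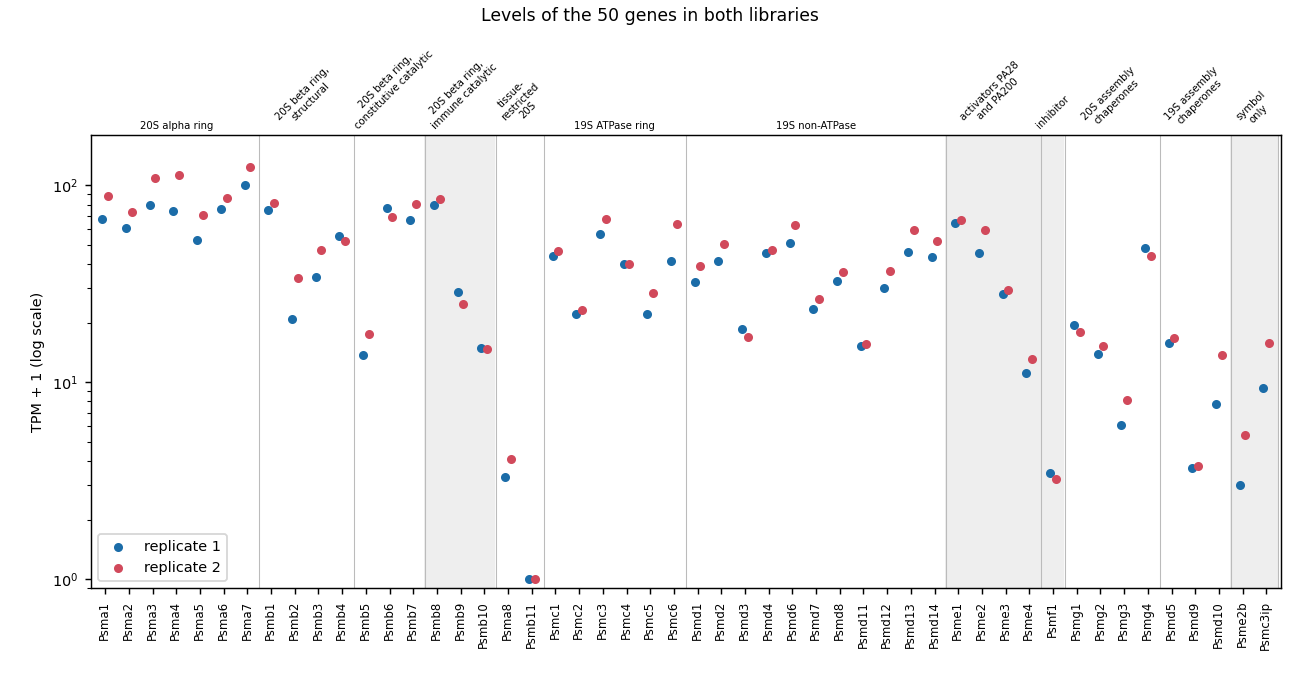
Level of each of the 50 genes as TPM + 1 on a log axis, with replicate 1 in blue and replicate 2 in red, grouped by role from the 20S alpha ring on the left to the 2 genes found by symbol only on the right. The alpha ring is the highest group, Psmb5 lies far below the other constitutive catalytic genes, and Psmb8 lies among the highest 20S genes.

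The immune and constitutive catalytic subunits are encoded by separate genes that look alike around the active site. In each of the 6 genes the mature chain begins with the threonine that cuts the peptide bond. The 30 coding bases from that residue are shown because they are the part in which each pair can be compared directly. The bases come from GENCODE M21, and the capitals mark the threonine codon.
Psmb6, constitutive beta1: ACCacgatcatggctgtgcagtttaatggg
Psmb9, immune beta1: ACAaccatcatggcagtggagtttgacggg
Psmb7, constitutive beta2: ACTaccatcgcgggggtggtgtataaggat
Psmb10, immune beta2: ACTaccatcgcggggcttgtgttccgagat
Psmb5, constitutive beta5: ACCaccaccctggccttcaagtttctccat
Psmb8, immune beta5: ACAaccacactcgccttcaagttccagcat
Over the whole coding sequence the partners were 67.5% identical at beta1, 64.8% at beta2 and 68.7% at beta5. Their longest identical runs were 11, 15 and 18 bases. No stretch of 50 bases was shared within a pair, so over the coding sequence a read of that length could be told apart.

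The balance between constitutive and immune genes differed by position. At beta1 and beta2 the constitutive gene was higher in both libraries, and at beta5 the immune gene was higher in both. Psmb6, the constitutive beta1 gene with caspase-like activity (mm10 chr11:70525367-70527858), was at 75.6 and 68.3 TPM in replicates 1 and 2. Its immune partner Psmb9 (chr17:34181987-34187764) was at 27.7 and 24.1 TPM. The log2 difference, constitutive minus immune on log2(TPM + 1), was 1.42 and 1.47. The libraries were further apart on other scales: Psmb9 had 0.292-fold and 0.408-fold the expected counts of Psmb6, and 0.397-fold and 0.290-fold its TPM over coding transcripts alone.

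At beta2, the trypsin-like position, the constitutive gene was further ahead. Psmb7 (chr2:38588036-38644087) was at 65.7 and 79.95 TPM. Psmb10, its immune partner (chr8:105935735-105938444), was at 13.9 and 13.8 TPM. The log2 difference was 2.31 ± 0.20 (SD, n = 2), larger than at beta1 in each library on deposited TPM.

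The beta5 pair, which carries the chymotrypsin-like activity, went the other way. Psmb5, the constitutive gene (chr14:54614119-54618022), was at 12.8 and 16.5 TPM, from 1282 and 1212 expected counts. Psmb8, the immune gene (chr17:34197721-34201454), was at 78.3 and 84.7 TPM, from 10375 and 8864 expected counts. The immune gene was thus 6.11-fold above its partner in replicate 1 and 5.14-fold in replicate 2, a log2 difference, constitutive minus immune, of -2.41 ± 0.16 (SD, n = 2). The authors' deposited bounds for Psmb5 ended at 13.4 and 17.2 TPM, and those for Psmb8 began at 75.6 and 81.6 TPM, so they did not meet.

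Of the TPM at each position, the immune gene held 26.8% and 26.1% at beta1, 17.5% and 14.7% at beta2, and 85.9% and 83.7% at beta5. Over all 6 genes the immune share was 43.2% ± 0.756 (SD, n = 2). Psmb8 held most of the immune TPM in both libraries. In order of deposited level, Psmb8 was first in both libraries. Psmb6 and Psmb7 changed places between the libraries, as did Psmb5 and Psmb10 at the bottom, so neither of these orders held beyond the spread. Psmb9 lay between these pairs in both, on deposited TPM.

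At each position the same gene was the higher one in deposited TPM, counts, coding transcripts alone and the longest coding model, while the size of the difference depended on which transcript models carried the reads. The deposited level of Psmb9 leans on Psmb9-202, a partial model of 433 bases with no annotated start. That model held 74.0% of the gene's TPM in replicate 1 and 40.5% in replicate 2, whereas the full-length model Psmb9-204 held 24.6% and 32.8%. A retained-intron model, Psmb9-205, went from 1.08% to 24.2%. With the counts divided by the length of the longest coding model instead, Psmb9 was at 11.6 and 14.1 TPM. It then lay among Psmb5 and Psmb10 and was the lowest of the 6 genes in replicate 1. Psmb9 was also 0.155-fold and 0.210-fold Psmb6 on that scale, beside 0.224-fold and 0.192-fold for Psmb10 over Psmb7, so beta1 had the larger difference in replicate 1.

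Psmb8 likewise had 66.1% and 59.5% of its TPM on Psmb8-203, a model of 815 bases with no annotated end. The full-length Psmb8-201 alone was at 24.7 and 32.9 TPM, which is above the deposited level of Psmb5 in the same library. With the longest coding model, Psmb8 was at 49.6 and 56.1 TPM, and was 3.87-fold and 3.40-fold the level of Psmb5. It was then below Psmb6 and Psmb7 in both libraries, so the first rank of Psmb8 was lost. The immune share of the 6 genes then fell to 33.4% and 35.0%. Without any length scaling, Psmb8 had 8.09-fold and 7.31-fold the expected counts of Psmb5.

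Psmb5 shares sequence with other genes, so its level is less certain. Of the 850 words of 50 bases in Psmb5-201, 57.1% also occurred in transcripts of 3 other genes. The 2 of these that the files list held 0 and 6.87 expected counts together, and the third, Gm3375, was not among the genes analysed here. Scaled up as though no read from shared words had been counted, Psmb5 would be at 29.9 and 38.4 TPM. Deposited Psmb8 would still be 2.62-fold and 2.21-fold higher. Psmb8 on the longest coding model, at 49.6 and 56.1 TPM, would also be higher, but by less. The full-length Psmb8-201 alone, at 24.7 and 32.9 TPM, would be below the scaled Psmb5 in both libraries.

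The catalytic positions were close to one another once both genes of each position were added, a sum chosen after seeing the data. Beta1 summed to 103 and 92.4 TPM, beta2 to 79.6 and 93.8 TPM, and beta5 to 91.1 and 101 TPM. The highest position was 1.30-fold and 1.10-fold above the lowest, compared with 5.90-fold and 4.85-fold for the constitutive genes alone. The order of the 3 sums differed between the libraries. With the longest coding model the sums were 1.39-fold and 1.18-fold apart. Of the 4 structural beta genes, which have no immune substitute, Psmb1 was nearest to the deposited sums at 74.0 and 80.7 TPM, and Psmb2, Psmb3 and Psmb4 were further below.

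**Figure D2:**
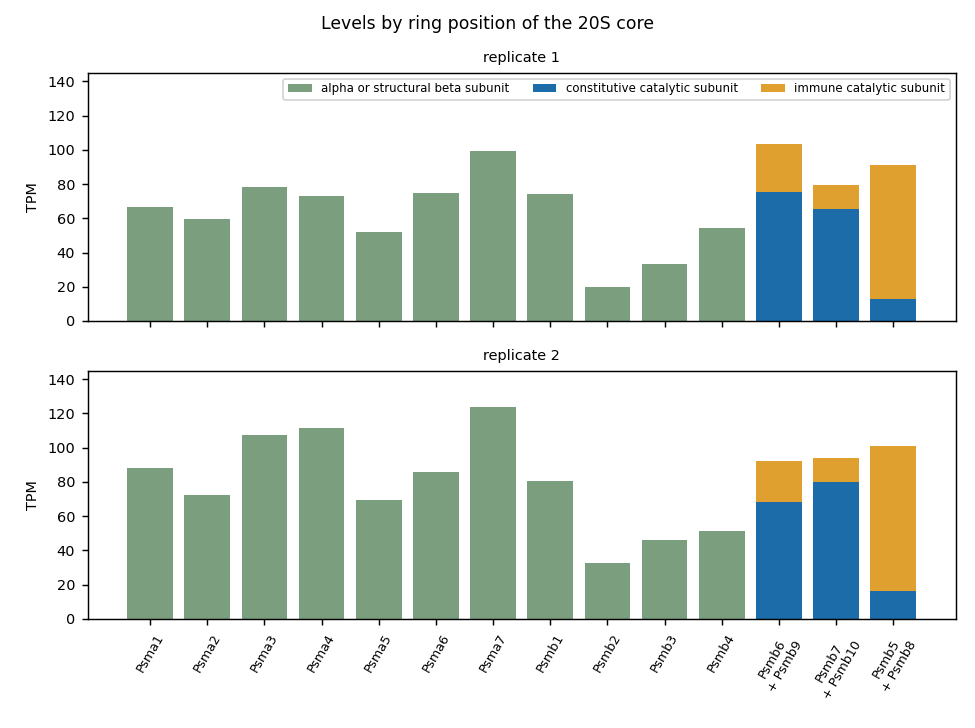
TPM at the 14 positions of the 20S core in replicate 1 (top) and replicate 2 (bottom), with green bars for alpha and structural beta genes and, at the catalytic positions, the constitutive gene in blue under its immune partner in orange. The stacked bars reach 79.6 to 103 TPM, and orange makes up most of the bar only at Psmb5 and Psmb8.

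Several of the catalytic genes have neighbours with related roles. Psmb9, the peptide transporter genes Tap1 and Tap2, and Psmb8 lie together in the class II region of the mouse major histocompatibility complex. Psmb9 and Tap1 run on opposite strands of chromosome 17 and overlap by 212 bases, and Tap1 ends 495 bases before Psmb8 begins. Tap1 was at 17.7 and 19.3 TPM and Tap2 at 13.7 and 14.8 TPM, both below the deposited levels of Psmb9 and Psmb8 in each library. Tap1 was above Psmb9 in both when Psmb9 was given the length of its longest coding model. Psmb5 lies 3410 bases from Psmb11 on chromosome 14. Psmb11, the beta5 subunit of thymic cortical epithelium, had 0 counts in both libraries, which allows up to 0.00511 and 0.00665 TPM for counting error alone.

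All 6 class I loading genes checked, Tap1 and Tap2 included, were at or above 10 TPM in both libraries. B2m, the light chain of class I molecules, was at 385 and 429 TPM. Erap1, which trims peptides in the endoplasmic reticulum, was at 17.2 and 22.4 TPM. Genes of dendritic cells and macrophages, which are known for immune subunits, were low but not absent. The 4 checked summed to 3.73 and 5.96 TPM: Cd74 was at 0.43 and 1.28, H2-Aa at 0.46 and 1.01, Adgre1 at 1.92 and 1.95, and Flt3 at 0.92 and 1.72 TPM. Their part in the level of the immune subunits was not tested.

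Among the remaining core genes, the alpha ring was the highest group. Its 7 genes had a median of 72.8 and 87.9 TPM, and all 7 were above 50 TPM in both libraries. On deposited TPM, Psma7 was the highest of the 50 genes, at 99.5 and 124 TPM. Psma5 was the lowest of the ring, at 52.0 and 69.6 TPM. The highest was 1.91-fold and 1.77-fold above the lowest, beside 7.76-fold and 7.49-fold over the 14 constitutive 20S genes. This spread is of deposited TPM, where Psma3 counts in full. Of its coding models, Psma3-204 was at 14.15 and 17.88 TPM and Psma3-202 at 3.95 and 6.71 TPM. On coding transcripts alone Psma3 would thus be the lowest of the ring, and the ring would be less even. With the TPM of Gm13835 added, a pseudogene copy described below, Psma3 would instead be above Psma7, at 153 and 189 TPM.

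On deposited TPM the 4 structural beta genes were more uneven, a contrast that does not hold on coding transcripts alone. Below Psmb1 came Psmb4, at 54.1 and 51.1 TPM. Psmb3 was at 33.1 and 46.1 TPM, and Psmb2 was the lowest at 20.0 and 32.9 TPM. The order of the 4 was the same in both libraries on deposited TPM. On coding transcripts alone, Psmb4-201 was at 35.2 and 44.6 TPM and Psmb3-201 at 31.6 and 44.5 TPM, nearly equal in replicate 2. Psmb3 shares 55.8% of its words of 50 bases with other genes and Psma5 shares 54.5%, so their places in these orders are less certain, as for Psmb5. Over log2(TPM + 1), the median of the alpha ring exceeded that of the 7 constitutive beta genes by 0.60 ± 0.25 (SD, n = 2).

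Psma3, an alpha ring gene, had most of its TPM on transcripts not annotated as protein-coding. Its level was 78.4 and 108 TPM, but transcripts annotated as protein-coding held only 23.1% and 22.8% of it. Retained-intron transcripts held 44.6% and 35.7%, and transcripts annotated for nonsense-mediated decay held 32.3% and 41.5%. It was the only gene of the 49 at or above 1 TPM with a coding share below 70% in both libraries. The share of all protein-coding genes below 70% was not taken. The coding sequence of its leading coding transcript, Psma3-204, is 543 bases long. All 543 bases are also found, without a difference, in Gm13835, a processed pseudogene (chr6:31141979-31142663). The first 60 bases from the start codon are printed once because they read the same in both genes, and no letter is in capitals because none differs.
Psma3 and Gm13835: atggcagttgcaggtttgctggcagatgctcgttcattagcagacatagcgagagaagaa
Gm13835 was itself given 5451 and 4271 expected counts and 74.5 and 81.0 TPM. Psma3 and Gm13835 together held 153 and 189 TPM. How reads were divided between them cannot be seen in the tables, so the level of Psma3 is uncertain, and the part of the copy in its transcript makeup was not tested.

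In most of the other genes the TPM lay mainly on coding transcripts. The median coding share of the 49 genes, Psma3 included, was 98.01% and 96.7%. Both values were below the 99.6% and 98.9% over protein-coding genes at or above 1 TPM. In both libraries 33 genes were at 90% or more, and 15 were at 100%. The matching shares over all protein-coding genes were not taken, so these counts do not set the genes apart. Psmb4 went from 65.0% to 87.4%, with the rest on retained-intron transcripts, and Psmd14 from 67.2% to 89.6%. Psmd13 went down from 75.5% to 56.9%. Its span holds the processed pseudogene Gm15542 on the same strand, which was given 2081 and 2467 expected counts. Psme1 was steadier at 72.5% and 75.6%, with 21.7% and 18.2% on transcripts annotated for nonsense-mediated decay.

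**Figure D3:**
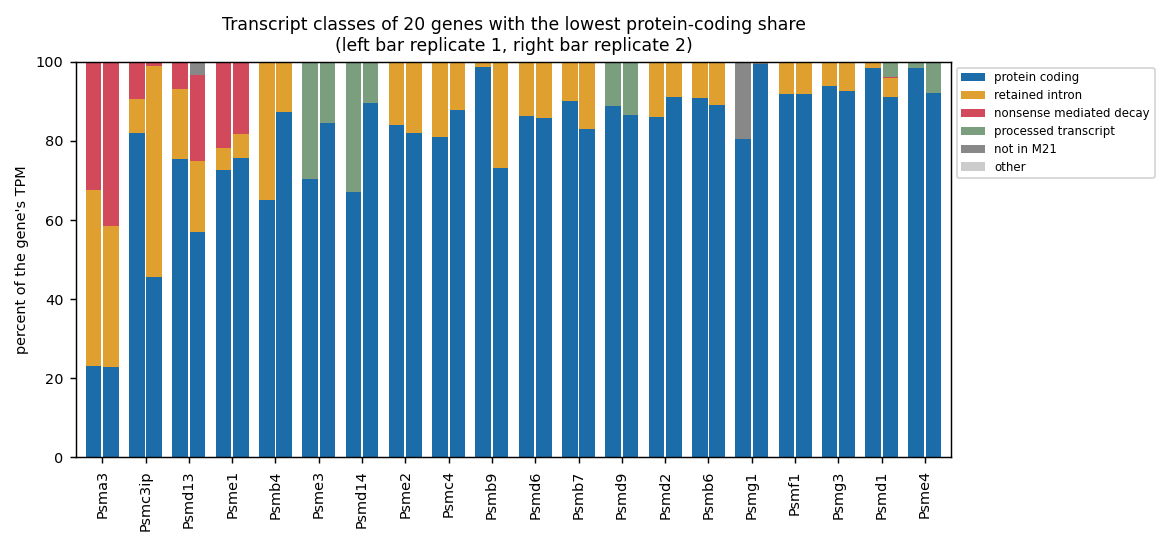
Share of each gene's TPM by transcript class, in percent, for the 20 genes with the lowest mean coding share, with replicate 1 as the left bar and replicate 2 as the right bar of each pair. Psma3 stands at 23.1% and 22.8% coding in blue, and the shares of Psmc3ip, Psmb4 and Psmd14 differ widely between their paired bars.

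The 19S cap was expressed at a lower level than the core. All 17 of its genes were at or above 10 TPM in both libraries, and their median was 39.0 and 38.8 TPM, beside 66.1 and 76.2 TPM for the 14 constitutive 20S genes. The difference of the medians of log2(TPM + 1), 19S minus 20S, was -0.85 ± 0.15 (SD, n = 2), and 1 of the 17 passed 50 TPM in both libraries, beside 11 of the 14.

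Among the 6 ATPases of the cap, which unfold the substrate, Psmc3 was the highest at 55.7 and 66.7 TPM. Psmc6 was at 40.4 and 62.6 TPM and Psmc1 at 42.9 and 45.5 TPM. Psmc2 and Psmc5 were the lowest, at 21.3 and 22.3 TPM and at 21.2 and 27.3 TPM. These 2 changed order between the libraries and could not be ranked.

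The 11 non-ATPase genes had a median of 31.6 and 37.9 TPM. Psmd6, a lid subunit, was the highest at 49.8 and 62.2 TPM. Psmd14, the deubiquitinase that removes the ubiquitin chain, was at 42.5 and 51.0 TPM. Psmd7, its structural partner, was lower at 22.6 and 25.5 TPM. The difference was smaller on coding transcripts alone, where Psmd14-201 was at 28.6 and 45.65 TPM. The ubiquitin receptor Psmd4 was at 44.4 and 46.2 TPM. The large base scaffolds were close to each other, with Psmd2 at 40.1 and 49.2 TPM and Psmd1 at 31.4 and 37.9 TPM. The lid subunits Psmd11 and Psmd3 were the lowest, at 14.3 and 14.7 TPM and at 17.7 and 15.9 TPM.

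All 4 activator genes were above 10 TPM in both libraries. Psme1 and Psme2 encode the interferon-inducible alpha and beta subunits of the PA28 activator and lie 5911 bases apart on chromosome 14. Psme1 was at 63.1 and 65.7 TPM and Psme2 at 44.5 and 58.2 TPM. Psme2 shares 59.3% of its words of 50 bases with Psme2b, and Psme2b itself was at 2.02 and 4.42 TPM. Psme3, the nuclear PA28 gamma subunit, was lower at 26.9 and 28.3 TPM. Psme4, the large PA200 activator, was the lowest of the 4 at 10.2 and 12.2 TPM. Psmf1, which encodes an inhibitor of the core, was at 2.47 and 2.23 TPM, below every activator.

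The assembly chaperones were expressed unevenly. Psmg4, part of the factor pair that helps build the alpha ring with Psmg3, was at 47.3 and 42.6 TPM. Psmg3 was at 5.06 and 7.14 TPM, so the partners differed by 9.35-fold and 5.97-fold on deposited TPM. In expected counts the difference was smaller, with 2338 and 1465 for Psmg4 beside 583 and 624 for Psmg3. The lengths used to scale Psmg4 were short, at 343 and 308 bases, beside 800 and 782 for Psmg3. The other pair was closer: Psmg1 was at 18.6 and 16.9 TPM, and Psmg2 at 12.9 and 14.3 TPM. Of the chaperones of the 19S base, Psmd5 was at 14.8 and 15.8 TPM. Psmd10, also called gankyrin, was at 6.79 and 12.7 TPM. Psmd9 was at 2.69 and 2.76 TPM.

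A few genes of the set are not known as parts of the standard particle. Psma8, the alpha subunit of male germ cells, was at 2.32 and 3.08 TPM from 506 and 510 expected counts. Psmc3ip, a recombination cofactor that carries the symbol pattern without being a subunit, was at 8.30 and 14.9 TPM. Its coding share went from 82.0% to 45.6%.

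Genes that work with the proteasome but lie outside the symbol pattern were mostly expressed, with 8 of the 11 found at or above 10 TPM in both libraries. Pomp, which matures the core, was at 70.4 and 79.9 TPM, near the alpha ring genes. The small 19S subunit Sem1 was at 40.6 and 45.2 TPM. The ubiquitin receptor Adrm1 was at 14.6 and 11.4 TPM, and Uchl5, the deubiquitinase it binds, was higher at 41.5 and 47.3 TPM. All 5 genes checked for ubiquitin and its activating enzyme were at or above 10 TPM. Ubb, a polyubiquitin gene, was at 246 and 248 TPM.

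Of 8 regulators of proteasome genes, 3 were at or above 10 TPM in both libraries. Nfe2l1, the factor of the proteasome bounce-back response, was at 7.85 and 8.29 TPM, and Nfe2l2, its oxidative stress relative, at 10.9 and 16.2 TPM. Irf1, an interferon regulatory factor, was at 10.9 and 9.72 TPM. Nlrc5, an activator of class I genes, was lower at 3.75 and 3.20 TPM.

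Promoter letters were compared because the set is known for shared control. RefSeq promoter entries of GRCm38.p6, from 250 bases before to 50 bases after the gene start, existed for 42 of the 50 genes, and 11 motifs were searched on both strands. The ETS motif CCGGAAG was in 15 promoters, or 35.7%, beside 9.93% of all promoters and 26.3% of those of protein-coding genes at or above 10 TPM. The antioxidant response core TGACNNNGC was in 14.3%, beside 14% of all and 18.2% of expressed promoters, and Psmb5 and Psmb6 were among the genes that held it. The interferon-stimulated response element core, GAAA repeated after any 2 bases, was in 11.9%, beside 3.99% of all and 4.22% of expressed promoters, and its 5 holders were Psmb3, Psmd4, Psmd9, Psme1 and Psmg4. It was not found in the windows of Psmb8, Psmb9, Psmb10 or Psme2. The interferon gamma motif TTCNNNGAA was in 7.14%, beside 9.55% of all and 8.08% of expressed promoters, and its holders were Psmb8, Psmd2 and Psmg1. The GC box GGGCGG was in 54.8%, beside 38.2% of all and 70.3% of expressed promoters. The CCAAT box was in 35.7%, beside 41.1% of all and 43.7% of expressed promoters. Each of the remaining motifs was in 4 promoters of the set or fewer. These are matches of letters, and binding was not measured.

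Between the libraries the set moved little. Ratios here are log2 CPM (counts scaled to the library total), replicate 2 minus replicate 1, after scaling of the library sizes. The median over the 50 genes was -0.02. For the 48 genes averaging 10 CPM or more, the median size of the ratio was 0.15, beside 0.18 over 8204 protein-coding genes. Above 0.5 there was 1 of the 48, or 2.08%, beside a background of 4.35%. Below -0.5 there were 2, or 4.17%, beside 5.19%. These shares are close to the background.

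The gene above 0.5 was Psmd10, with 1222 and 1723 expected counts and a ratio of 0.61. The genes below -0.5 were Psmf1, with 862 and 481 counts and a ratio of -0.72, and Psmg4, with 2338 and 1465 counts and a ratio of -0.56. Psmb6 was next at -0.49, so the constitutive beta1 gene moved more than Psmb9, at -0.01. Psmb8 was at -0.11 and Psmb5 at 0.04, so the beta5 pair differed little between libraries beside its difference within each.

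The ratio went with base composition. Over the 48 genes Spearman's rho between the ratio and the GC content of the leading coding transcript was -0.54, a description across genes that share the same pair of libraries. The median ratio was 0.036 for genes at or below 50.2% GC and -0.133 for those above. GC content ran from 37.0% in Psmc6, which had a ratio of 0.34, to 58.3% in Psmd3, which had a ratio of -0.48. It was taken from GENCODE M21 sequences, which for some genes differ in length from the models that were quantified. Psmc6-201 has 2234 bases in M21 and 1564 in the quantified model, so its GC content may differ from that of the model. The part of base composition in the ratios was not tested.

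**Figure D4:**
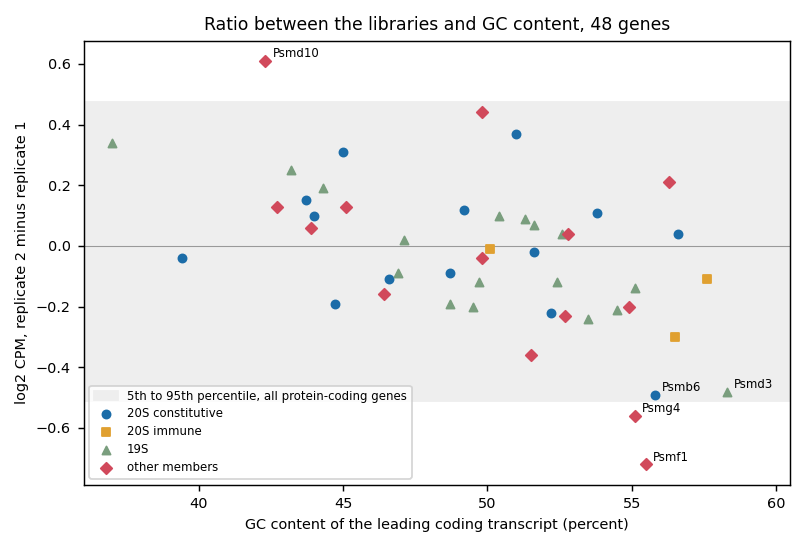
Log2 ratio of replicate 2 to replicate 1 in CPM against the GC content of the leading coding transcript in percent, for 48 genes. GC content is that of the GENCODE M21 sequence. Symbols mark the complex, and a grey band runs from the 5th to the 95th percentile of all protein-coding genes. The ratios fall as GC content rises, with Psmd10 above the band and Psmf1 and Psmg4 below it.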

How the data were processed

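Total RNA-seq tables of 2 libraries were used as deposited. Per the file headers, the authors gave expected counts, TPM and FPKM for each gene and transcript, with posterior means, bounds of a credibility interval (the level is not given) and, per transcript, the percent it makes up of its gene. Assembly and annotation are mm10 and GENCODE M4 in the deposited metadata. The sources used here do not give the aligner, quantifier or strand setting. In the labels the size range is 200 to 712 (replicate 1) or 200 to 1000 (replicate 2), without a unit.

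Symbols, classes and coordinates came from GENCODE M21, matched by identifier for 42462 of 43346 genes. Levels are deposited TPM, with a pseudocount of 1 on the log2 scale. For ratios, expected counts were rounded, given TMM factors of 0.985 and 1.02 in edgeR 4.0.16 under R 4.3.3, and expressed as log2 CPM with a prior count of 2. On 12860 genes kept by filterByExpr the biological coefficient of variation was 0.264. The ratio step was tested on simulated counts that varied less than these libraries. Only the recovery of median ratios was checked, so the test does not bear on the ratio of a single gene. Shared sequence was counted as words of 50 bases of the leading coding transcript found in transcripts of other genes. Sequences for words and GC content were those of M21, and some differ in length from the quantified models. A count of 0 allows 3 counts, which is 0.0606 and 0.0678 CPM, for counting error only.

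Every gene found by the symbol rule could be named, with fixed lists of related genes and markers. The genes, lists and comparisons were chosen with earlier results of these data known. Of 24 genes that overlap another annotated gene, 19 do so on the opposite strand. Paaf1 was not found under that symbol. Some list members are left out by name. RefSeq has no promoter entry here for Psma8, Psmb1, Psmb2, Psmb7, Psmc3, Psmd3, Psmd7 and Psmg2. Alternatives included other thresholds, pseudocounts and units, DESeq2 1.42.0 size factors and each library alone.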

Additional observations from a re-analysis of the deposited data

Results flagged for a closer look

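Outside the protein-coding genes, 4 pseudogenes carry the same symbol pattern. Psmb7-ps2, a transcribed processed pseudogene on the X chromosome, had 0 expected counts in replicate 1 and 5 in replicate 2. It was singled out because 5 is above the 3 counts set here as the limit for a count of 0, which does not show a difference between the libraries. The other 3, Psmb5-ps, Psmb6-ps and Psmb6-ps2, had 0 counts in both libraries.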

How the results depend on the processing

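Of 69 alternatives over 9 results, 51 stayed close, 15 moved and 3 changed sign. Close means within 1 SD of the replicates, or, for the count of genes, within 1.5 times. Apart from that count, a value from 1 library alone cannot lie further than 1 SD from the mean of both. Leaving out genes below 1 TPM also changed nothing where no gene was below it. The 51 thus include alternatives that could not move, and their number does not measure how stable the results are. The median ratio has no SD, and 0.18, the median size of a ratio over protein-coding genes, was used in its place. The median log2(TPM + 1) of the genes, 5.18, became 6.59 in FPKM and 7.41 with TPM rescaled over nuclear protein-coding genes. The median difference of the 3 catalytic pairs, 1.44, became 1.51 with coding transcripts only, 1.51 in CPM, 0.45 as a mean of the pairs and 2.13 with the longest coding model. The immune share, 43.2%, became 47.3% in counts, 44.99% with coding transcripts only, 34.2% with the longest coding model and 40.4% with Psmb5 scaled up. Alpha minus beta, 0.60, became 0.89 with coding transcripts only. The SD over constitutive 20S genes, 0.78, became 0.84 with coding transcripts only, 0.58 with catalytic positions summed and 0.61 with these sums on the longest coding model. The median ratio between libraries, -0.02, became 0.013 with library totals, 0.25 in deposited TPM and 5.2e-05 in rescaled TPM, all near 0 except deposited TPM, whose protein-coding share differs between the libraries. The median coding share, 97.4%, was 91.5% as a mean. Otherwise the cause was not tested.

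Using each library alone gave 5.06 to 5.30 for the median level, 1.42 to 1.47 for the pairs, -0.96 to -0.75 for 19S minus 20S, 0.42 to 0.77 for alpha minus beta, 0.76 to 0.80 for the SD, 42 to 44 genes at or above 10 TPM, 42.7% to 43.7% for the immune share and 96.7% to 98.01% for the coding share. The number at or above the threshold was 45 at 5 TPM, 34 at 20 TPM and 48 on rescaled TPM. The longest coding model, the summed positions, the scaling of Psmb5 and the coding-only forms of the SD, 19S minus 20S and alpha minus beta were chosen after seeing the data, as was leaving out the 2 genes found by symbol only. No paired analysis was possible because there is 1 group. With 2 libraries, no difference between genes was tested, and differences near the SD cannot be ranked.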
